A study of Mus musculus with 6 samples.

Results

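Keratin-associated proteins are the matrix proteins of the hair shaft, and the mouse genes that encode them carry symbols starting with Krtap. All 53 Krtap rows among the 23518 gene symbols of the expression table were taken by symbol alone and grouped by subfamily number and by chromosome. They fell into 26 subfamilies, with 23 genes on chromosome 16, 21 on chromosome 11, 5 on chromosome 7, 3 on chromosome 10 and 1 on chromosome 1. The study sequenced total RNA from ear skin of HdR mice, described as carrying HOIL1 ΔRING1, and of wild-type (WT) mice, with 3 libraries per genotype. HOIL1 is a subunit of the linear ubiquitin chain assembly complex and is encoded by Rbck1. Ears of both genotypes were treated with 10 mg of a cream holding 5% imiquimod, a toll-like receptor agonist used to provoke psoriasis-like inflammation, and all 6 libraries were taken at day 1. Untreated ears were not analysed here, so each value describes treated skin. The sources used here do not give strain, sex, age, the cells that carry the mutation or the number of animals behind a library. The p-values therefore measure the spread between these libraries.

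In a growing follicle, cells that leave the matrix at the base of the bulb first make hair keratins and then keratin-associated proteins, which fill the space between keratin filaments and are cross-linked to them. The families are classed as high-sulphur, ultra-high-sulphur or high-glycine-tyrosine proteins by their composition, and different members mark the cortex and the cuticle of the shaft. Interfollicular epidermis does not build this matrix, and in skin these transcripts are known from follicles that are forming hair.

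Depth was 17.5, 14.8 and 14.9 M read pairs in HdR libraries 1, 2 and 3 and 16.8, 18.9 and 19.9 M in WT libraries 1, 2 and 3, taking 300 aligned bases as 1 pair. Levels are given as aligned bases per megabase of all aligned bases after TMM (trimmed mean of M-values) scaling, written bases per Mb. A level of 1 base per Mb stood for 11.7 to 23.6 read pairs per library. Rbck1, the gene of the targeted protein, had 23.9, 13.0 and 19.7 bases per Mb in HdR and 66.6, 55.1 and 64.1 bases per Mb in WT, a log2 change of -1.70 (SE 0.22, limma adjusted p = 0.00438). Of 15049 genes tested, 2701 were lower in HdR and 1904 higher, so that 41.3% of the calls were higher. With scaling to total bases that share was 17.6% and with quantile normalisation 53.1%. The median log2 change of all genes was -0.13, and -0.41 with scaling to total bases. Krt14 and Krt10, keratins of the epidermis that check the tissue label, ranged from 2190 to 2790 and from 3400 to 4100 bases per Mb in HdR, and from 3560 to 4530 and from 3650 to 4490 bases per Mb in WT.

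Krtap RNA was lower in HdR ear skin across nearly the whole family. Summed over all 53 genes, coverage was 52.6, 148 and 108 bases per Mb in HdR libraries 1, 2 and 3, against 367, 443 and 453 bases per Mb in WT libraries 1, 2 and 3. The means were 103 ± 47.9 in HdR and 421 ± 47.2 in WT (SD, n = 3 each), so HdR held 24.4% of the WT level, and the groups did not overlap. In 44 of the 53 genes every HdR value lay below every WT value, as it did in 21.3% of all rows with coverage. In bulk tissue, fewer cells of a type and less RNA per cell cannot be told apart.

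All 53 genes had coverage in at least 1 library, and 37 had it in all 6. The number with any coverage was 39, 46 and 49 in HdR libraries 1, 2 and 3, against 52, 53 and 52 in WT. At least 1 base per Mb was reached by 15, 26 and 25 genes in HdR libraries 1, 2 and 3 and by 37, 39 and 41 in WT. In 1 or more HdR libraries 16 genes were listed at 0, and only Krtap13 was listed at 0 in a WT library. Krtap5-1, Krtap4-16 and Krtap13 were listed at 0 in all 3 HdR libraries.

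A filter that asked for 1 base per Mb or more in 3 or more of the 6 libraries left 36 genes for testing and kept 17 out. All 36 reached that level in all 3 WT libraries, 8 of them in no HdR library, so those 8 (Krtap5-2, Krtap5-5, Krtap12-1, Krtap4-1, Krtap16-1, Krtap24-1, Krtap26-1 and Krtap27-1) passed only through WT and had to differ. Of the 36, 33 (all but Krtap4-2, Krtap19-1 and Krtap22-2) were lower in HdR at a limma adjusted p under 0.05, against 17.9% of all genes tested, and 0 were higher, against 12.7%. The log2 changes ran from -3.41 to -0.74 with a median of -1.38, beside -0.13 for all genes tested. Among the 15 genes that reached 1 base per Mb in all 6 libraries, 14 were lower. A total of 8 genes had a log2 change of -2 or lower, a size that 0.392% of all genes tested reached (59 of 15049). Without the filter, 29 of 53 were lower and 0 higher at the same threshold, where 4.84% of all rows with coverage were lower and 4.37% higher, and 52 of 53 had a negative sign.

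The counts depended on single libraries more than the directions did. Without WT replicate 1, 28 Krtap genes passed the filter and 11 were lower, at a limma adjusted p threshold that then called 1.55% of all genes lower. Without WT replicate 2 the count was 20 of 28, against 22.6% of all genes. Without WT replicate 3 it was 18 of 28, against 5.04%, and without HdR replicate 1 it was 23 of 36, against 11.9%. No tested Krtap gene had a positive log2 change in any of these fits. With the replicate number as a block 35 of 36 were lower, against 27.2% of all genes tested. Every HdR value lay below every WT value in 33 of the 36 tested genes, all but Krtap3-3, Krtap4-2 and Krtap22-2, against 30.7% of all genes tested.

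**Figure D1:**
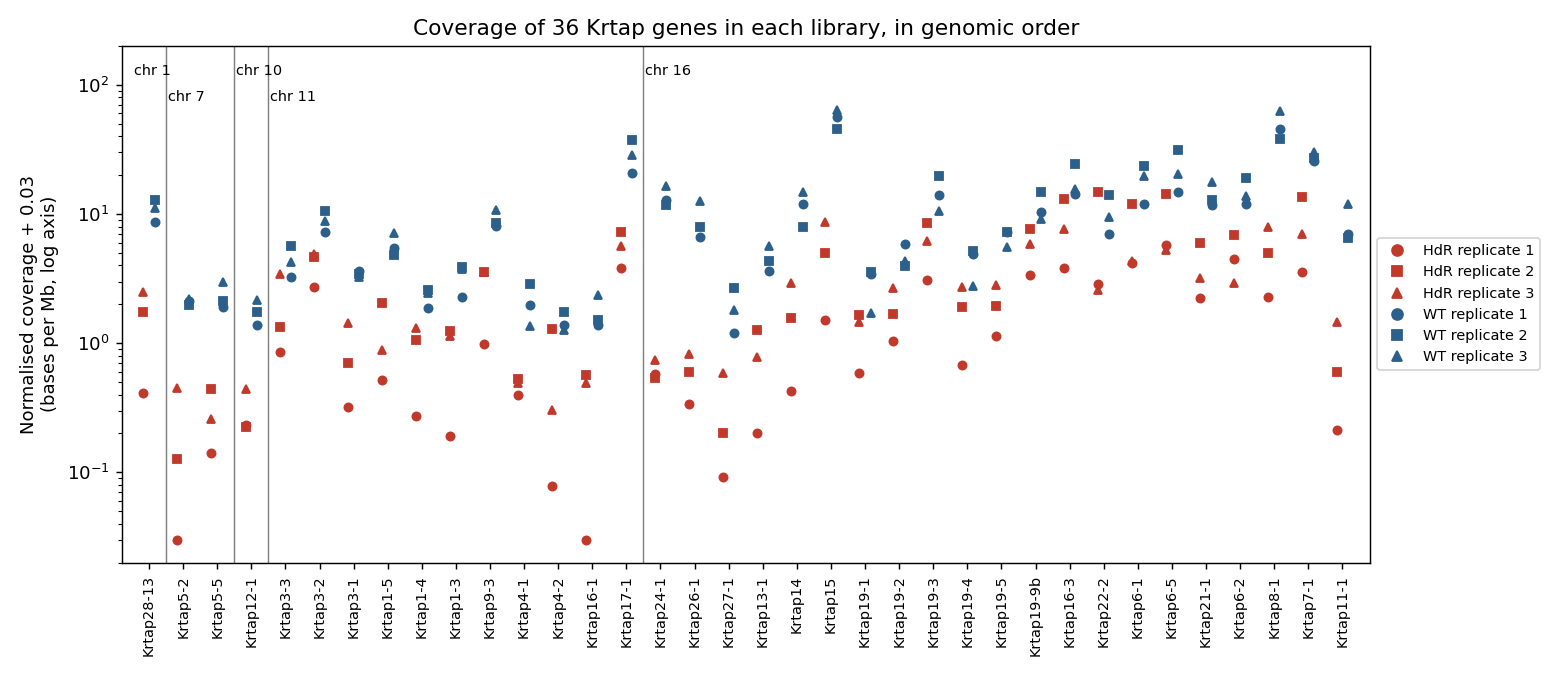
Normalised coverage (bases per Mb plus 0.03, log axis) of the 36 Krtap genes that passed the filter, in genomic order; red symbols are HdR libraries, blue symbols WT libraries, and the symbol shape gives the replicate. The red symbols lie below the blue ones in 33 of the 36 genes, with overlap in Krtap3-3, Krtap4-2 and Krtap22-2, and HdR replicate 1 is the lowest HdR library in 31.

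Promoter windows of some genes whose values follow are shown here. The family shares a start-site feature that the choice by symbol did not use. RefSeq promoter sequences (GRCm38.p6, 250 bases before to 50 after each gene's start) matched 48 of the 53 genes. The letters TATAAA on the gene's strand occurred in 39 of the 48 (81.2%), against 8.32% of 32851 promoters of the same length, and between 40 and 20 bases before the start in 28 (58.3%), against 1.99%. The core CTTTGA, bound by LEF1 and TCF factors, occurred on either strand in 14 of the 48 (29.2%), against 16% of all promoters. The core ACGC, bound by FOXN1, occurred on either strand in 12 (25.0%), against 55.3%. These motifs can share at most 1 base with each other. The 48 were counted once per gene, whereas the 32851 were not reduced to 1 promoter per gene and include the Krtap promoters. Some of the 48 are near copies of each other, such as Krtap31-1 and Krtap31-2, so they are not independent observations. Each line gives 60 bases before to 20 after the start on the gene's strand, with capitals marking TATAAA. The first 5 genes are those with the largest falls in log2(bases per Mb + 1).
Krtap15, chr16:88828949-88829028, plus strand, no TATAAA in this stretch: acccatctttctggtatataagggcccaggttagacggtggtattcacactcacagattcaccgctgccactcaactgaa
Krtap24-1, chr16:88612260-88612339, minus strand: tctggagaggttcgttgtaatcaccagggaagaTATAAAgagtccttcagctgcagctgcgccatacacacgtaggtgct
Krtap8-1, chr16:89487933-89488012, minus strand: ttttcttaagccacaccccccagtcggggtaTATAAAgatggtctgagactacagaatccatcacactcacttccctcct
Krtap26-1, chr16:88647777-88647856, minus strand: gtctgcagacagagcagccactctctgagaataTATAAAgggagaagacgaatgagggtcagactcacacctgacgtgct
Krtap11-1, chr16:89571164-89571243, minus strand: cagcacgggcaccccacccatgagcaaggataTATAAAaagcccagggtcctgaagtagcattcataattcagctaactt
Krtap28-13, chr1:83060870-83060949, plus strand: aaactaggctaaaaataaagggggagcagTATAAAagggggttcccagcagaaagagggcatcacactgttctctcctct
Krtap17-1, chr11:99993975-99994054, minus strand: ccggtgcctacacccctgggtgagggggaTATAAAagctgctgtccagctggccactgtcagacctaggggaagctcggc
Krtap5-2, chr7:142175986-142176065, minus strand: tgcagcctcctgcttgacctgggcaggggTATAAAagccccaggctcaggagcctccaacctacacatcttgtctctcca
Krtap19-9b, chr16:88932245-88932324, minus strand: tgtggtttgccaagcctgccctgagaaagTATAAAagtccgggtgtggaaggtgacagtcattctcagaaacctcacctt
Krtap22-2, chr16:89010740-89010819, minus strand: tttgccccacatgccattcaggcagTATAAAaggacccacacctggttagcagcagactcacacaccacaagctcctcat
Genes with large falls (Krtap24-1, Krtap8-1) and genes with small differences (Krtap19-9b, Krtap22-2) both held TATAAA in this stretch. Genes of both kinds also lacked it there. It was absent from Krtap15 and Krtap14, at log2 changes of -3.41 and -2.35. Krtap19-1, Krtap19-2, Krtap19-3, Krtap19-4 and Krtap19-5, at -1.41 to -0.81, held none either and are not shown.

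The chromosome 16 cluster, from 88610705 to 89571183 in GRCm38, held 77.5% of summed Krtap coverage in HdR and 76.9% in WT. Of its 21 tested genes 19 were lower, against 17.9% of all genes tested. Krtap24-1, Krtap26-1 and Krtap27-1 among these passed the filter only through WT. Its sum was 41.8, 119 and 78.2 bases per Mb in HdR libraries 1, 2 and 3, against 288, 331 and 350 bases per Mb in WT, and HdR averaged 24.7% of WT. The 2 genes of the cluster with the highest mean level per kb of transcript were Krtap15 and Krtap8-1. Krtap15 (chr16:88820215-88829844, plus strand), a high-sulphur gene, had 1.49, 4.99 and 8.68 bases per Mb in HdR and 56.4, 45.7 and 63.4 bases per Mb in WT. With 1 added to each value, its log2 change was -3.41 (SE 0.42, limma adjusted p = 0.00357). That was the largest fall among the 36 tested Krtap genes on this scale. With 0.1 added instead, Krtap24-1 and Krtap26-1 fell further, at -4.32 and -3.82 beside -3.73 for Krtap15. HdR averaged 4.3% of WT in Krtap24-1 and 9.16% in Krtap15. Krtap8-1 (chr16:89487379-89487952, minus strand), of the high-glycine-tyrosine class, had 2.26, 4.99 and 7.93 bases per Mb in HdR and 45.3, 38.2 and 62.7 bases per Mb in WT (log2 change -3.12, SE 0.35, limma adjusted p = 0.00267). In both Krtap15 and Krtap8-1 the highest HdR library stayed far below the lowest WT library, and HdR library 1 was the lowest of all 6.

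The size of the difference was not even along this cluster, and 3 stretches were marked off after the values had been seen, so they are a description with no test. Other genes named from here on beyond those picked by level were also chosen after their values were seen. The proximal stretch, Krtap24-1 to Krtap15, held 7 genes, of which 6 were tested. All 6 were lower, against 17.9% of all genes tested. Krtap24-1, Krtap26-1 and Krtap27-1 among them passed the filter only through WT and had to differ. Its sum was 2.98, 9.01 and 14.4 bases per Mb in HdR libraries 1, 2 and 3 and 92.7, 80.4 and 115 bases per Mb in WT, so HdR averaged 9.17% of WT. Krtap24-1, whose human counterpart is a protein of the hair cuticle, had 0.551, 0.504 and 0.711 bases per Mb in HdR and 12.9, 11.8 and 16.4 bases per Mb in WT (log2 change -3.20, SE 0.19, limma adjusted p = 3.03e-04). Its HdR libraries lay close together and far below WT. Krtap26-1 (log2 change -2.66), Krtap14 (-2.35), Krtap13-1 (-1.71) and Krtap27-1 (-1.16) fell as well.

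The distal stretch, Krtap8-1 to Krtap11-1, held 3 genes, all tested and all lower, against 17.9% of all genes tested. Its sum was 5.95, 19.2 and 16.3 bases per Mb in HdR and 78.0, 71.6 and 105 bases per Mb in WT, or 16.3% of WT on average. Krtap11-1, a high-sulphur gene, had 0.184, 0.565 and 1.42 bases per Mb in HdR and 6.96, 6.52 and 12 bases per Mb in WT (log2 change -2.48, SE 0.31, limma adjusted p = 0.00369). Krtap7-1, a high-glycine-tyrosine gene between those neighbours, had 3.51, 13.6 and 6.94 bases per Mb in HdR and 25.8, 26.9 and 30.2 bases per Mb in WT (log2 change -1.83, limma adjusted p = 0.0131). Without WT replicate 1 its limma adjusted p was 0.0507.

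The middle stretch, Krtap19-1 to Krtap6-2, is made up of high-glycine-tyrosine families and held 13 genes. Of these, 12 were tested and 10 were lower, against 17.9% of all genes tested. Its sum was 32.9, 90.9 and 47.5 bases per Mb in HdR libraries 1, 2 and 3 and 117, 179 and 131 bases per Mb in WT, so HdR averaged 40.1% of WT and every HdR library was still below every WT library. The 2 highest genes per kb in the subfamily with the most tested genes were Krtap19-3 and Krtap19-9b. Krtap19-3 (chr16:88877513-88878038) had 3.03, 8.56 and 6.13 bases per Mb in HdR and 14.1, 19.5 and 10.6 bases per Mb in WT (log2 change -1.24, SE 0.33, limma adjusted p = 0.0269). Krtap19-9b (chr16:88931804-88932265) had 3.36, 7.63 and 5.84 bases per Mb in HdR and 10.3, 14.9 and 9.11 bases per Mb in WT (log2 change -0.94, SE 0.28, limma adjusted p = 0.0367). The groups did not overlap in either gene, but the gaps between them were small and the calls rested on single libraries. The limma adjusted p of Krtap19-3 was 0.0625 without HdR replicate 1 and 0.084 without WT replicate 1. That of Krtap19-9b ran from 0.058 to 0.0979 without HdR replicate 1, HdR replicate 3 or any of the 3 WT libraries. With quantile normalisation the limma adjusted p was 0.0715 for Krtap19-3 and 0.117 for Krtap19-9b.

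Within the middle stretch, Krtap22-2 was the tested gene with the least separation between genotypes. It had 2.82, 14.8 and 2.57 bases per Mb in HdR libraries 1, 2 and 3 and 7.01, 13.9 and 9.51 bases per Mb in WT (log2 change -0.85, SE 0.52, limma adjusted p = 0.231). HdR library 2 was the highest of all 6, and without it the limma adjusted p was 0.0302 at a log2 change of -1.56. Krtap6-5 had 5.76, 14.3 and 5.27 bases per Mb in HdR and 14.7, 31.5 and 20.5 bases per Mb in WT (log2 change -1.36, limma adjusted p = 0.0287), and its highest HdR library was again library 2. Without HdR replicate 1, HdR replicate 3, WT replicate 1 or WT replicate 3 its limma adjusted p was 0.0808, 0.0687, 0.0561 and 0.0655. Krtap19-1, at a log2 change of -0.81, had a limma adjusted p of 0.0546, and of 0.0412 with the replicate number as a block.

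Set against each other within a library, the middle stretch carried 3.68, 3.22 and 1.55 times the coverage of the proximal and distal stretches together in HdR libraries 1, 2 and 3, and 0.687, 1.18 and 0.596 times in WT. The means were 2.82 in HdR and 0.821 in WT. No HdR library overlapped a WT library, but the stretches were drawn from these same values. A higher ratio in HdR was thus built into them, and its separation from WT is no evidence. Both terms of the ratio come from the same library, so its depth and scaling do not enter the value. The length trend can enter it, as transcripts had 304 to 786 nt in the middle stretch and 574 to 1575 nt in the others. The ratio was not made with that trend removed. In both genotypes replicate 2 had the highest middle-stretch sum of its group. After removal of the length trend, the log2 changes ran from -3.96 to -1.78 in the proximal stretch, from -3.76 to -2.45 in the distal one and from -2.33 to -1.47 in the middle one.

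**Figure D2:**
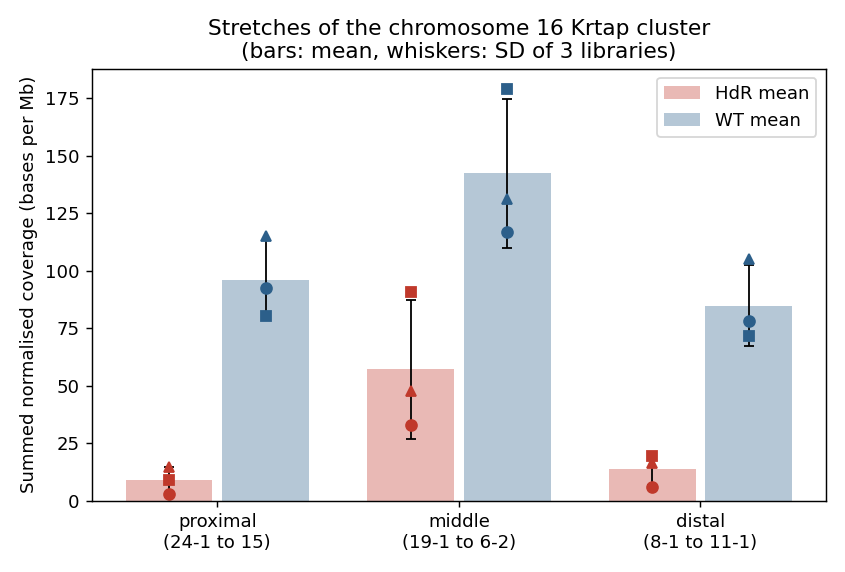
Summed normalised coverage (bases per Mb) of the proximal, middle and distal stretches of the chromosome 16 Krtap cluster, with HdR left of WT; bars are means, whiskers SD of 3 libraries and symbols single libraries (circle, square and triangle for replicates 1, 2 and 3). HdR averages 9.17%, 40.1% and 16.3% of WT in the proximal, middle and distal stretch.

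The chromosome 11 cluster, from 99550130 to 99993994, lies beside the type I keratin genes and encodes high-sulphur and ultra-high-sulphur proteins. Its summed coverage was 9.97, 26.0 and 25.2 bases per Mb in HdR libraries 1, 2 and 3, against 62.1, 89.3 and 79.9 bases per Mb in WT, or 26.4% of WT on average. Of its 21 genes 11 were tested and 10 were lower, against 17.9% of all genes tested. Krtap4-1 and Krtap16-1 among them passed the filter only through WT and had to differ. Krtap17-1 (chr11:99993234-99993994, minus strand), the most abundant of them per kb, had 3.76, 7.26 and 5.63 bases per Mb in HdR and 20.6, 37.3 and 28.5 bases per Mb in WT (log2 change -2.18, SE 0.27, limma adjusted p = 0.0036). Krtap9-3 (chr11:99597347-99598105, minus strand), an ultra-high-sulphur gene, had 0.962, 3.52 and 3.50 bases per Mb in HdR and 8.06, 8.46 and 10.7 bases per Mb in WT (log2 change -1.55, SE 0.32, limma adjusted p = 0.0142). In both genes all HdR values lay below all WT values. Without WT replicate 1 the limma adjusted p of Krtap9-3 was 0.0529.

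The Krtap1 genes of this cluster, Krtap1-5, Krtap1-4 and Krtap1-3, fell by 1.73, 0.85 and 1.26 on the log2 scale. The limma adjusted p of Krtap1-4 lay between 0.0591 and 0.0956 when any library but HdR 3 was left out, and that of Krtap1-3 was 0.052 without WT replicate 3. The Krtap3 genes, Krtap3-1, Krtap3-2 and Krtap3-3, fell by 1.34, 0.97 and 0.99, and the groups overlapped in Krtap3-3, whose limma adjusted p was 0.0485 and lay between 0.0872 and 0.15 when any library but HdR 3 was left out. The limma adjusted p of Krtap3-2 was 0.0514 without HdR replicate 1, 0.0623 without WT replicate 1 and 0.0587 without WT replicate 3, and that of Krtap3-1 was 0.0507 without WT replicate 1. Krtap4-2 had 0.049, 1.26 and 0.276 bases per Mb in HdR and 1.35, 1.70 and 1.23 bases per Mb in WT (log2 change -0.74, limma adjusted p = 0.0688, and 0.0287 with the replicate block). Its HdR library 2 reached the WT range and the other HdR libraries did not. Krtap16-1 (-1.04) lies here, whereas Krtap16-3 (-1.16), which shares its subfamily number, lies in the high-glycine-tyrosine middle stretch on chromosome 16. Leaving out any library but HdR 2 took the limma adjusted p of Krtap16-3 to between 0.0746 and 0.105.

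The smaller loci carried genes whose relatives are expressed in the hair cuticle in human follicles, the Krtap5 genes on chromosome 7 and the Krtap10 and Krtap12 genes on chromosome 10. Their levels were low, and Krtap5-2, Krtap5-5 and Krtap12-1 passed the filter only through WT. Krtap5-2 (chr7:142174535-142176005) had 0, 0.0972 and 0.418 bases per Mb in HdR and 2.08, 1.93 and 2.15 bases per Mb in WT (log2 change -1.40, SE 0.19, limma adjusted p = 0.00484). Krtap5-5 (chr7:142228795-142229971) had 0.112, 0.415 and 0.229 bases per Mb in HdR and 1.87, 2.10 and 2.94 bases per Mb in WT (log2 change -1.39, limma adjusted p = 0.00566).

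Krtap12-1 (chr10:77720599-77721254), inside the gene Tspear, had 0.204, 0.195 and 0.410 bases per Mb in HdR and 1.35, 1.71 and 2.12 bases per Mb in WT (log2 change -1.10, SE 0.19, limma adjusted p = 0.00935). Krtap10-10 (chr10:77835947-77837252) stayed below the filter, with 0, 0.427 and 0.207 bases per Mb in HdR and 0.454, 0.715 and 1.57 bases per Mb in WT. Krtap28-13 (chr1:83060930-83061921, plus strand), the single gene on chromosome 1, had 0.382, 1.72 and 2.46 bases per Mb in HdR and 8.58, 12.8 and 11 bases per Mb in WT (log2 change -2.31, SE 0.33, limma adjusted p = 0.00573). On all 5 chromosomes the sum was lower in every HdR library than in every WT library, as were 21.3% of all single rows with coverage. HdR stood at 14.1% of WT on chromosome 1, 10.8% on chromosome 7 and 16.9% on chromosome 10.

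**Figure D3:**
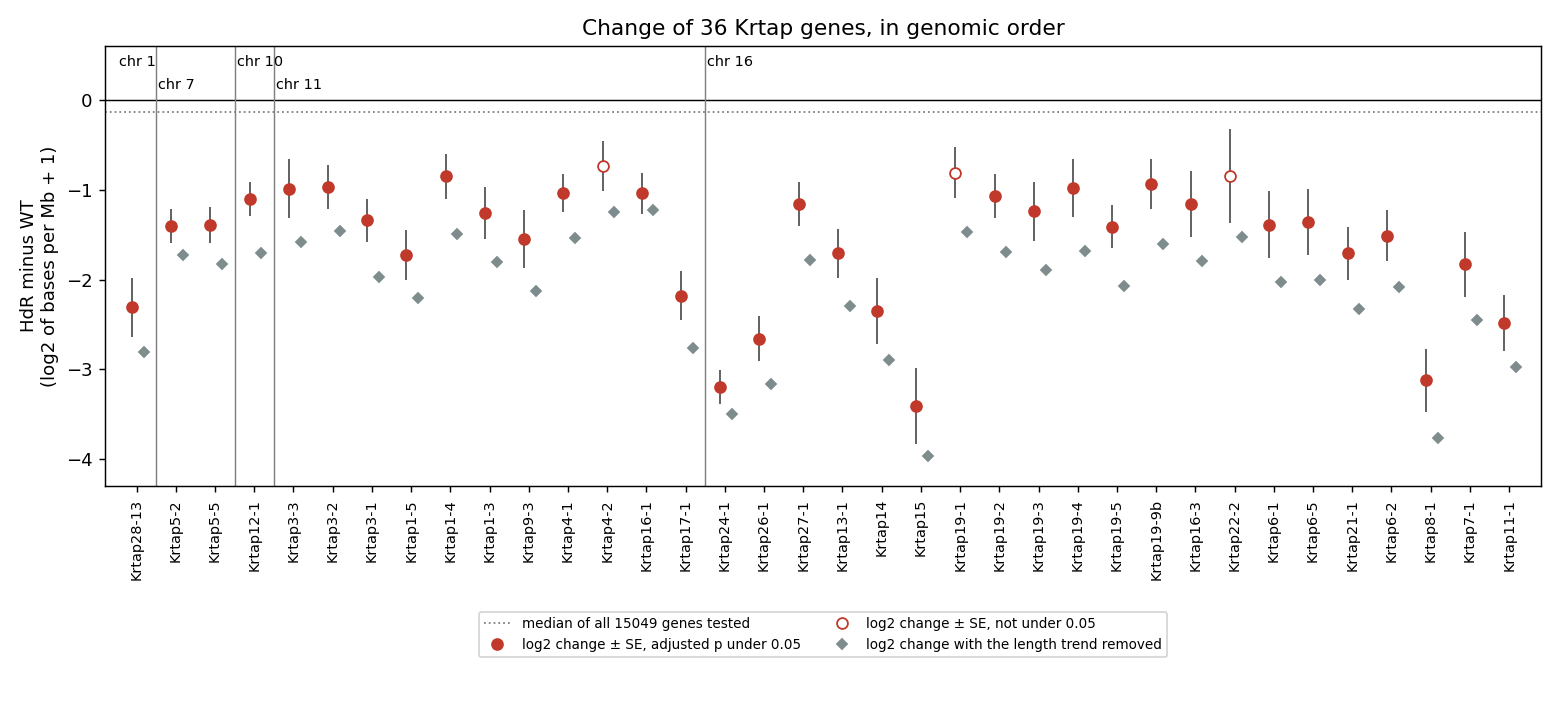
Difference between HdR and WT (log2 of bases per Mb plus 1) for the 36 tested Krtap genes in genomic order; filled circles with whiskers are limma estimates ± SE at an adjusted p under 0.05, open circles those that did not reach it, diamonds the values after removal of the length trend, and the dotted line the median of all genes tested (-0.13). All 36 points lie below the dotted line, from -3.41 (Krtap15) to -0.74 (Krtap4-2).

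By subfamily, the sum was lower in every HdR library than in every WT library in 23 of 26. Among all rows with coverage, taken singly and not as sums, 21.3% were separated in this way. Among the 22 subfamilies with a tested gene, HdR averaged 4.30% of WT in subfamily 24, 6.18% in subfamily 26, 8.52% in subfamily 11, 9.16% in subfamily 15 and 10.4% in subfamily 8. At the other end it averaged 36% in subfamily 6, 40.4% in subfamily 3, 40.7% in subfamily 19, 42.8% in subfamily 16 and 66.6% in subfamily 22. The value of subfamily 16 joins Krtap16-3 on chromosome 16, at 45.1%, and the less abundant Krtap16-1 on chromosome 11, at 19.3%. Subfamily 19, with 6 tested genes, summed to 9.70, 23.2 and 21.5 bases per Mb in HdR and 45.6, 54.2 and 34.0 bases per Mb in WT. The 3 subfamilies whose groups overlapped were subfamilies 2, 20 and 22, each with 1 gene. Krtap20-2, below the filter, was the only gene with a positive sign, at 0, 0.833 and 0.0689 bases per Mb in HdR and 0.235, 0.104 and 0.254 bases per Mb in WT. Its log2 difference was 0.07, and -0.02 with scaling to total bases. HdR library 2 alone stood above WT.

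**Figure D4:**
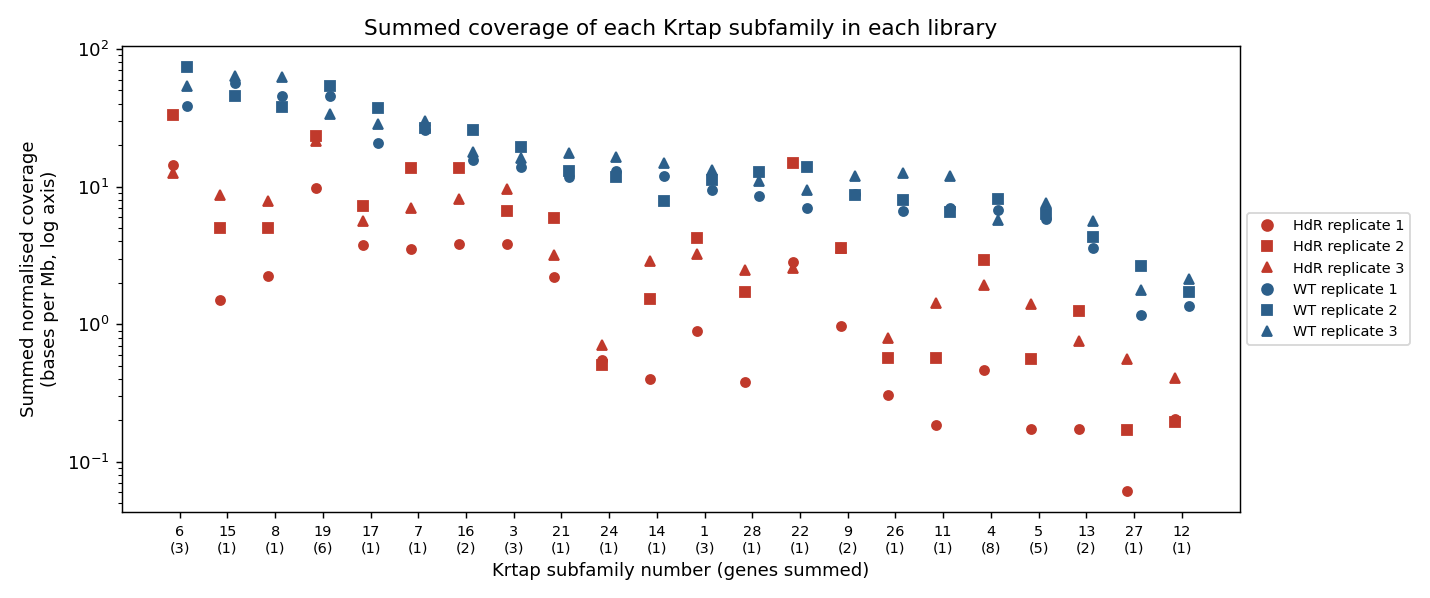
Summed normalised coverage (bases per Mb, log axis) of each Krtap subfamily with at least 1 tested gene, in each library, ordered by WT level; the number of genes summed is in brackets, red is HdR and blue WT. Subfamilies 24, 26, 11, 15 and 8 show the widest gaps, and subfamily 22 overlaps through HdR replicate 2.

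Levels can be set beside each other between genes only per length. Per kb of transcript, the highest mean levels in HdR were 18.5 bases per Mb for Krtap22-2, 14.2 for Krtap6-5, 13.6 for Krtap16-3, 12.9 for Krtap7-1 and 12.1 for Krtap19-9b. The value of Krtap22-2 was carried by HdR library 2, at 40.5 bases per Mb per kb, against 7.73 and 7.04 in HdR libraries 1 and 3. In WT the highest were 84.9 bases per Mb per kb for Krtap8-1, 64.8 for Krtap15, 44.5 for Krtap7-1, 37.9 for Krtap17-1 and 37.4 for Krtap6-5. Krtap8-1 was the highest tested Krtap gene in each WT library and also in HdR library 3, at 13.8 bases per Mb per kb, while Krtap6-5 was the highest in HdR library 1 and Krtap22-2 in HdR library 2. Krtap8-1 and Krtap15 averaged 8.82 and 5.94 bases per Mb per kb in HdR. Because the leading gene differed between HdR libraries, the order of the HdR means describes these 3 libraries.

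Low coverage kept 17 genes out of testing, and in 11 of these 17 every HdR value lay below every WT value, as it did in 4.15% of all rows with coverage below the filter. The 3 with the highest means per kb were Krtap2-4, Krtap4-7 and Krtap4-6. Krtap2-4 had 0.0276, 0.797 and 0.570 bases per Mb in HdR and 0.786, 2.71 and 1.00 in WT, and the groups overlapped narrowly. Krtap4-7 had 0.0453, 0.256 and 0.276 bases per Mb in HdR and 1.52, 1.48 and 0.916 in WT, with no overlap. Krtap4-6 had 0, 0.666 and 0.464 bases per Mb in HdR and 0.650, 0.772 and 0.697 in WT, and its groups overlapped by 1 library. Of the 8 genes of subfamily 4, an ultra-high-sulphur family, 6 were below the filter. One of them, Krtap4-16, was listed at 0 in all HdR libraries, with 5631, 3433 and 3525 aligned bases in WT. The other genes whose groups overlapped were Krtap4-9, Krtap4-13, Krtap13 and Krtap20-2.

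Library HdR 1 alone was the lowest of all 6 in 41 of the 53 genes, was tied at 0 with other HdR libraries in 5, and was the lowest HdR library in 31 of the 36 tested. It was not the shallowest HdR library, at 17.5 M read pairs. The highest library was WT 3 in 24 genes, WT 2 in 21, WT 1 in 6 and HdR 2 in 2. Without HdR library 1 the median log2 change of the tested Krtap genes was -1.16, and without HdR library 2 it was -1.53. The Krtap sum ran from 52.6 to 148 bases per Mb over the HdR libraries and from 367 to 453 over the WT libraries.

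Transcript length moved with the comparison, and Krtap transcripts are short. The longest annotated transcript of each of the 53 genes had 1 exon, with lengths of 304 to 1888 nt, and the median was 743 nt for the 36 tested, against 3270 nt for all genes tested. The slope of log2 level on log2 length was -0.125, -0.272 and -0.0805 in HdR libraries 1, 2 and 3 and 0.190, 0.0404 and 0.247 in WT, so short genes tended to be higher in HdR. Among the 2982 other tested genes of the same length range, the median log2 change was 0.43, with 4.09% lower and 35.7% higher. With the length trend removed, all 36 Krtap genes were lower, where 8.47% of all genes were lower, and their median was -1.93 (range -3.96 to -1.23).

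Near-identical copies can trade reads, and the sources used here do not say how such reads were assigned. By windows of 75 nt, over 20% of the transcript was shared with another gene in 11 of the 53 genes, of which Krtap3-2, Krtap3-3 and Krtap6-1 were tested. Of the 18 tested genes that shared no window, 17 were lower, against 17.9% of all genes tested. These 18 include Krtap16-1, Krtap24-1, Krtap26-1 and Krtap27-1, which passed the filter only through WT and had to differ. Whether strand was used is not given in the sources either. Krtap14 and Krtap15, whose annotated spans overlap on opposite strands, therefore cannot be told apart where they overlap. Nor can Krtap24-1 and its antisense gene Gm49688.

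Other rows within the same chromosome intervals numbered 27, of which 6 were tested, and all 6 were lower, against 17.9% of all genes tested. These were Gm11562, Gm11568 and Gm11559 on chromosome 11 and Gm10229, Gm10228 and 1110025L11Rik on chromosome 16. Gm11562 and Gm11568 reached 1 base per Mb in no HdR library, so they passed only through WT and had to differ. All 6 share windows of 75 nt with Krtap genes, Gm11562 with Krtap2-4, Gm11568 and Gm11559 with Krtap9-1, and the chromosome 16 rows with Krtap6-1 and Krtap6-5, so reads in those windows cannot be told apart. Gm10229 had 7.30, 28.5 and 7.11 bases per Mb in HdR and 28.4, 47.7 and 32.1 in WT (log2 change -1.52, limma adjusted p = 0.037), with HdR library 2 reaching the WT range as in Krtap22-2. Of the 10 nearest tested protein-coding genes on either side of the intervals, keratin genes left aside, 1 was lower and 2 were higher. On chromosome 11, the log2 change was 0.10 for Smarce1 (limma adjusted p = 0.594) and 1.00 for Eif1 (limma adjusted p = 0.011). On chromosome 16 it was -0.69 for Cldn8 (limma adjusted p = 0.0774) and -0.30 for Tiam1 (limma adjusted p = 0.272). Ccl20, a chemokine gene beside Krtap28-13, rose by 2.04 (limma adjusted p = 0.0175), and Gm10024 beside Krtap12-1 fell by 1.20 (limma adjusted p = 0.00882). Gm10024 also passed the filter only through WT.

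Hair keratins, the filament proteins that keratin-associated proteins cross-link, were lower together with them. Of 16 hair shaft keratin genes tested, 15 were lower and 0 higher, against 17.9% and 12.7% of all genes tested. Their median log2 change was -1.84. Without WT replicate 1, 8 were lower, in a fit that called 1.55% of all genes lower. Krt39, Krt40 and Krt87 passed the filter only through WT libraries, as did Dsg4 among the hair shaft differentiation proteins and Shh among the regulators. Krt35, an early cortex and cuticle keratin, had 1.91, 1.33 and 2.48 bases per Mb in HdR and 28.7, 35.8 and 37.7 in WT (log2 change -3.60, SE 0.21, limma adjusted p = 3.03e-04). Krt33a and Krt32 fell by 2.73 and 2.13. Of the inner root sheath and companion layer genes, which encase the growing shaft, 9 of 9 tested were lower, against 17.9% of all genes. Their median was -3.31. Krt71, Krt25 and Krt27 of the sheath fell by 3.72, 3.29 and 3.28.

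Hair shaft differentiation proteins were mixed. Of 12 tested, 7 were lower and 1 higher, against 17.9% and 12.7% of all genes tested, with a median of -1.08. S100a3, a calcium-binding protein of the hair cuticle, had 13.3, 30.6 and 18.4 bases per Mb in HdR and 104, 196 and 127 in WT (log2 change -2.75, limma adjusted p = 0.00288), with no overlap. Mt4, a metallothionein of stratified epithelia, rose by 1.18 (limma adjusted p = 0.0287) and by 0.50 with the length trend removed (limma adjusted p = 0.149), and Lgals7 had a log2 change of 0.58 (limma adjusted p = 0.175).

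Among 12 regulators of hair formation, 5 were lower and 0 higher, against 17.9% and 12.7% of all genes tested, with a median of -0.72. Those lower were Hoxc13, a regulator of hair keratin genes (-1.36), Msx2 (-1.36), Shh (-1.14), Foxq1 (-0.87) and Dlx3 (-0.80). The 3 most abundant of the list per kb, Gata3, Msx1 and Prdm1, had log2 changes of -0.11, 0.15 and -0.02 (limma adjusted p = 0.588, 0.446 and 0.949). With the length trend removed, or without HdR replicate 1, 3 regulators were lower, against 8.47% and 11.9% of all genes. Without WT replicate 1 or WT replicate 3 the count was 2, against 1.55% and 5.04% of all genes. Hoxc13 itself had 2.03, 1.95 and 2.18 bases per Mb in HdR and 5.74, 6.36 and 8.72 in WT.

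Lists that mark other parts of the skin had medians between -0.94 and -0.18, beside -1.38 for the Krtap genes and -0.13 for all genes tested. In the outer root sheath and bulge list, 2 of 7 tested were lower (Lgr5 and Lhx2) with a median of -0.18, and Krt17, Krt15 and Cd34 had log2 changes of 0.06, 0.12 and -0.18. In the dermal papilla list 2 of 6 were lower (Corin, at -0.69, and Hhip), with a median of -0.24, and Sostdc1 and Inhba had log2 changes of -0.29 and -0.20. In the interfollicular epidermis list 2 of 7 were lower, with a median of -0.56. These were Krt1, at -1.03 (limma adjusted p = 0.0435), and the basal keratin Krt14, which fell by 0.71. Krt10 and Krt2 had log2 changes of -0.14 and -0.56. In the sebaceous gland list 1 of 6 was lower (Fa2h, at -1.05) with a median of -0.32, and Mgst1, Scd1 and Awat1 had log2 changes of 0.61, -0.44 and 0.25. In the dermal fibroblast list 2 of 5 were lower with a median of -0.94, namely Col1a1 at -1.90 (limma adjusted p = 0.00503) and Col1a2 at -0.94 (limma adjusted p = 0.0354), and Dcn, Lum and Col3a1 had log2 changes of 0.45, -0.39 and -1.22. With the length trend removed Dcn was higher, at 0.81 (limma adjusted p = 0.0442). Each count over all 6 libraries is read against 17.9% of all genes tested. The fits without HdR replicate 1, 2 or 3 called 11.9%, 7.64% and 13.5% of all genes lower. Those without WT replicate 1, 2 or 3 called 1.55%, 22.6% and 5.04%, and the counts that follow are read against these shares. With single libraries left out the counts ran from 0 to 2 for the dermal papilla (0 without WT replicate 1 or 3), from 0 to 1 for the epidermis (0 without HdR replicate 2 or 3 or WT replicate 1 or 3), from 0 to 1 for the sebaceous gland (0 without HdR replicate 2 or WT replicate 1 or 3) and from 1 to 2 for fibroblasts (1 without HdR replicate 1 or 3 or WT replicate 1 or 3).

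Of 6 cell division genes tested 4 were lower, against 17.9% of all genes tested, with a median log2 change of -1.33. Without WT replicate 1, 2 were lower, against 1.55% of all genes. Top2a, a topoisomerase of dividing cells, had 26.4, 14.8 and 7.97 bases per Mb in HdR and 70.1, 49.0 and 79.6 in WT (log2 change -2.07, limma adjusted p = 0.0103). Mki67 had the largest fall of the list, with a log2 change of -2.4 (limma adjusted p = 0.00442). Ccnb1 and Ccna2 fell by 1.65 and 0.92. Cdk1 had 26.7, 22.0 and 6.96 bases per Mb in HdR and 34.0, 32.2 and 34.0 in WT and did not pass (limma adjusted p = 0.0835), and Birc5 had a log2 change of -0.28 (limma adjusted p = 0.624). Summed over the list, coverage was 139, 101 and 55.1 bases per Mb in HdR libraries 1, 2 and 3 and 303, 228 and 330 in WT. HdR library 1, lowest for Krtap genes, was the highest HdR library for this sum. The inner root sheath sum, at 38.1, 148 and 81.9 bases per Mb in HdR and 607, 895 and 948 in WT, had the same order over HdR libraries as the Krtap sum. The part of cell division in the Krtap difference was not tested.

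**Figure D5:**
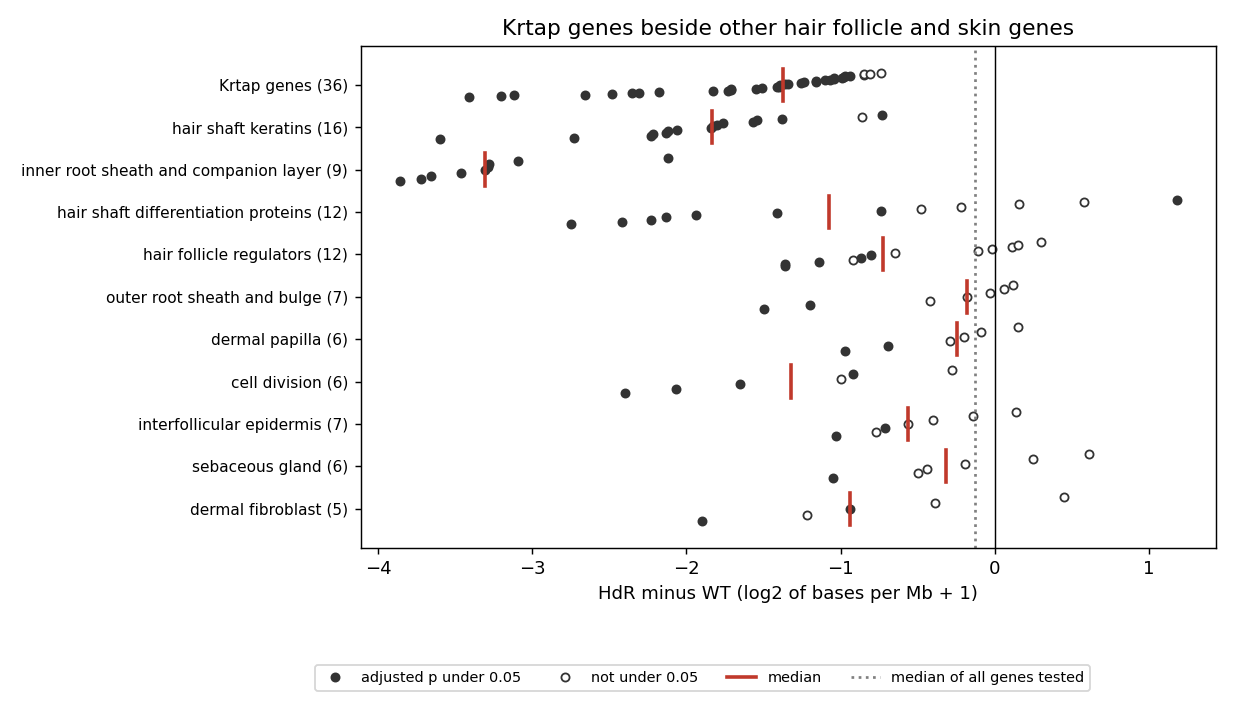
Difference between HdR and WT (log2 of bases per Mb plus 1) for each tested gene of the Krtap family and of 10 other skin gene lists, with the number tested in brackets; filled points have a limma adjusted p under 0.05, red bars are list medians and the dotted line is the median of all genes tested (-0.13). The Krtap median of -1.38 lies between those of the hair shaft keratins (-1.84) and the cell division genes (-1.33), with the hair shaft differentiation proteins at -1.08.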

How the data were processed

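Total RNA from ear skin was sequenced in 3 HdR and 3 WT libraries. The deposited table holds coverage, the aligned bases summed per gene symbol by the authors. Of 84 non-zero Krtap values under 3000 bases, 22 were whole multiples of 300, taken here as a pair of 150-base reads. Per the submitters' processing notes the build was GRCm38, and the sources used here name no aligner, counting or strand setting.

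Coverage is not a read count, so no count model was used. Values were scaled by TMM (30% and 5% trimmed) to bases per Mb. Genes that reached 1 base per Mb in 3 or more of the 6 libraries were fitted as log2(value + 1) with limma 3.58.1 (robust, trend, two-sided, R 4.3.3), HdR against WT, with Benjamini-Hochberg adjustment over 15049 genes and a threshold of 0.05. Changes of low genes are understated on this scale. Python 3.11.15 was used for sums and sequences, and GENCODE M21 gave lengths and positions for 23095 of 23518 symbols. The code was tested on simulated data.

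Library numbers in the titles are shared by the genotypes. Deviations from group means of same-numbered libraries correlated at 0.16, 0.42 and 0.37, so a fit with the number as a block was also made. Krtap genes and companion lists were chosen with earlier results of these data known. Per-library values are given for the 2 members with the highest mean level per kb on each chromosome, the 2 highest in each subfamily with 4 or more tested genes and the 3 highest below the filter, and the 3 genes with the highest mean level per kb in each companion list are named. Alternatives were another scaling, filter, pseudocount or threshold, removal of the length trend (a spline with 4 degrees of freedom), the block, and each library left out.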

Additional observations from a re-analysis of the deposited data

How the results depend on the processing

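No tested Krtap gene changed sign in any alternative, with log2 changes between -4.32 and -0.47. At an adjusted p under 0.05, 18 of the 36 were lower in every alternative in which they could be fitted. These 18 include the 8 genes that passed the filter only through WT and had to differ. Those 8 were fitted in only 11 or 12 of the 15 alternatives, and in none that left out a WT library. The count of 33 lower Krtap genes ran from 11 to 31 with 1 library left out, was 35 with the replicate block and 29 without the filter, where 9 of the 33 lost the call. Leaving out a WT library also leaves fewer Krtap genes tested (28), because the filter needs 3 libraries. The median Krtap change of -1.38 was -1.97 with a pseudocount of 0.1, -1.93 with the length trend removed, also with the replicate block, and -1.53 to -1.16 with 1 library left out. Over all genes, 2701 lower became 4305 with scaling to total bases, 1127 without the filter, 4094 with the replicate block, 1263 with the length trend removed and 230 to 3359 with 1 library left out. The 1904 higher became 917 with scaling to total bases, 1017 without the filter and 197 to 2657 with 1 library left out. Scaling to total bases moved the lower counts of interfollicular epidermis, sebaceous gland and fibroblast genes to 6, 2 and 4, and the log2 change of the subfamily sums of 24 and 20 to -3.40 and -0.02, the second a reversal from 0.07. The replicate block moved interfollicular epidermis to 4 and sebaceous gland to 2. Removing the length trend moved regulators to 3, dermal papilla to 0, interfollicular epidermis to 1 and fibroblast to 1. With 1 library left out the lower counts ran from 8 to 14 for hair shaft keratins, 2 to 6 for regulators, 0 to 2 for dermal papilla, 2 to 4 for cell division, 0 to 1 for interfollicular epidermis, 0 to 1 for sebaceous gland and 1 to 2 for fibroblast. The causes were not tested. Depth limits the 17 Krtap genes below the filter, where 1 base per Mb is 11.7 to 23.6 read pairs.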
